A study of Mus musculus with 2 samples.

Results

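The genes described here are 41 mouse genes of glutathione synthesis, use and breakdown, found by exact symbol among the 23284 gene symbols of each library. They comprise 9 genes of synthesis and breakdown, 6 peroxidases, 22 transferases and 4 glutaredoxins. The study searched for metastasis genes by setting B16/BL6 cells, an invasive subline, against B16 cells, the mouse melanoma line of C57BL/6 origin from which it was derived. B16/BL6 cells were grown in RPMI and B16 cells in DMEM, each with fetal bovine serum and penicillin/streptomycin, so the effects of line and medium cannot be told apart. There was 1 library of each line, made from polyadenylated RNA with a strand-specific Illumina kit. With a single library per line there is no replicate spread to set a value against, so nothing below was tested, and each ratio compares these libraries and not the lines in general.

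Values are FPKM, fragment counts scaled to transcript length and library depth, a scale on which levels of different genes can be set side by side. Each difference below subtracts the B16 value of log2(FPKM + 1) from the B16/BL6 value, and the added 1 understates the change of low genes. A 2-fold difference is 1 on that scale, and genes under 1 FPKM in both libraries were left out of counts and medians. FPKM over all genes summed to 563500 in B16/BL6 and 500500 in B16, a ratio of 1.13. The group sums below in FPKM are to be read beside that ratio. Single-fragment steps among the lowest values put the depth at about 11100000 fragments in B16/BL6 and 10000000 fragments in B16. The 10 melanocyte markers checked were all above 1 FPKM in both libraries, with sums of 18960 FPKM in B16/BL6 and 12440 FPKM in B16. They did not differ alike. Tyr stood at 164 FPKM in B16/BL6 and 10.6 FPKM in B16. Mitf (90.7 FPKM in B16/BL6 and 97.05 FPKM in B16) and Sox10 (262 FPKM in B16/BL6 and 308 FPKM in B16) were lower in B16/BL6. Of 8 fibroblast markers, 2 reached 1 FPKM in B16/BL6 (Col1a2 and Pdgfrb) and 0 in B16, with sums of 13.5 FPKM in B16/BL6 and 1.00 FPKM in B16, and Col3a1, Dcn, Lum and Thy1 were listed at 0 in both. Immune markers summed to 5.66 FPKM in B16/BL6 and 5.60 FPKM in B16, and none of the endothelial or epithelial markers reached 1 FPKM. The part of the fibroblast markers in the differences below was not tested, and in these bulk libraries more cells with a transcript and more transcript per cell cannot be told apart.

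Glutathione is a peptide of glutamate, cysteine and glycine and the most abundant thiol of animal cells. It is built by glutamate-cysteine ligase and glutathione synthetase, is oxidised when peroxidases and glutaredoxins use it as a reductant, and is returned to its reduced form by glutathione reductase with NADPH. Transferases join it to electrophiles, and the conjugates leave the cell through transporters of the ABC family. Pigment cells meet reactive quinones during melanin synthesis, and the cysteine that feeds glutathione also enters pheomelanin. Several genes of the pathway are known targets of the stress factor Nrf2, and Chac1 is a known target of ATF4.

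Of the 41 genes, 33 reached 1 FPKM in at least 1 library, 32 of them in both. On the log2(FPKM + 1) scale, 4 of the 33 passed 2-fold on the higher side in B16/BL6 (Ggt1, Gstp2, Gsta3 and Mgst1), which is 12.1%, beside 3.31% of the 10709 genes measured at that level. At least 2-fold lower was 1 gene, Chac1, or 3.03%, beside 3.16% of all genes. The median difference of the 33 genes was 0.34, with 24 above 0 and 9 below, against a median of 0.01 over all genes, with 5415 above 0 and 5294 below. Ggt1 entered these counts through B16/BL6 alone, so it had to differ. Ggt1 and Gsta3 had a mean under 5 FPKM, where 6.49% of all genes passed 2-fold on the higher side. That share was 2.62% from 5 to 20 FPKM, where Gstp2 lies, and 2.04% from 20 to 100 FPKM, where Mgst1 lies. With each library rescaled to the same sum (the TPM scale), the median of all genes moved to -0.16, and the split of the glutathione genes became 4 higher and 3 lower, beside 3.28% higher and 5.18% lower of the 11257 genes that reached the minimum on that scale. It was 4 and 2 after upper-quartile scaling, beside 3.13% and 3.38% of all genes. It was also 4 and 2 after subtracting from each gene the median of its chromosome, beside 3.02% and 3.09% of all genes. Just outside the 2-fold line lay Gstm5 at 0.99 and Mgst3 at -0.998, and just inside it Chac1 at -1.06. As plain ratios of FPKM, B16/BL6 over B16, more of the 33 genes passed 2-fold. They were Ggct (2.05), Gstm7 (2.03), Gstm4 (2.02) and Gstm5 (2.02) on the higher side, and Mgst3 (0.486) and Gstk1 (0.471) on the lower. The share of all genes past a plain ratio of 2 was not counted.

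**Figure D1:**
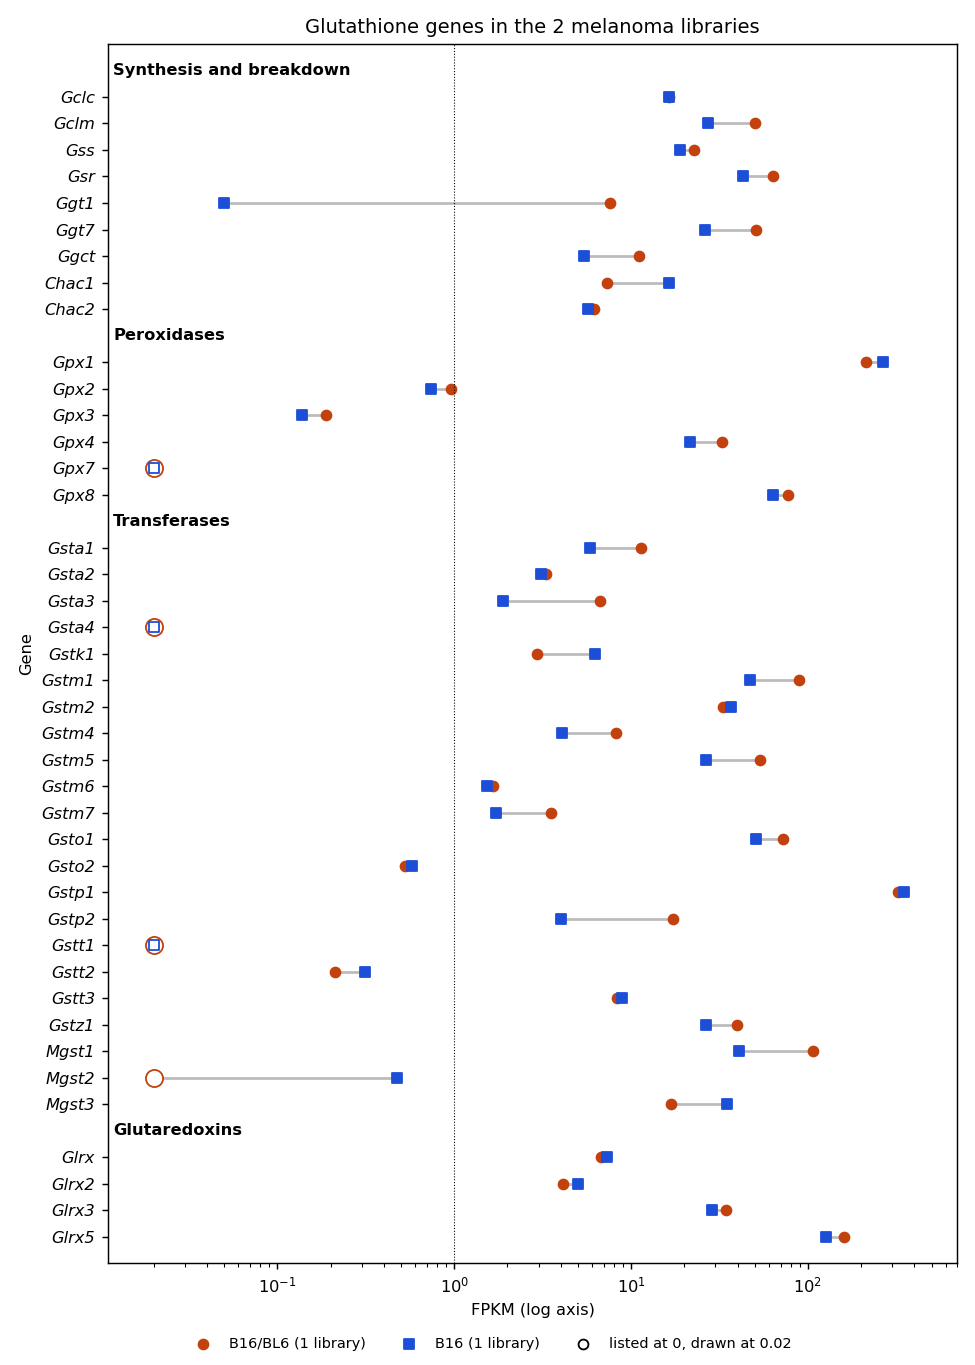
FPKM of each of the 41 genes (log axis), in B16/BL6 (circles) and B16 (squares), 1 library each, grouped by role; open symbols are values listed at 0 and the dotted line is 1 FPKM. Gstp1 and Gpx1 stand highest in both libraries, and Ggt1 has the widest gap, at 7.65 FPKM in B16/BL6 and 0.0499 FPKM in B16.

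**Figure D2:**
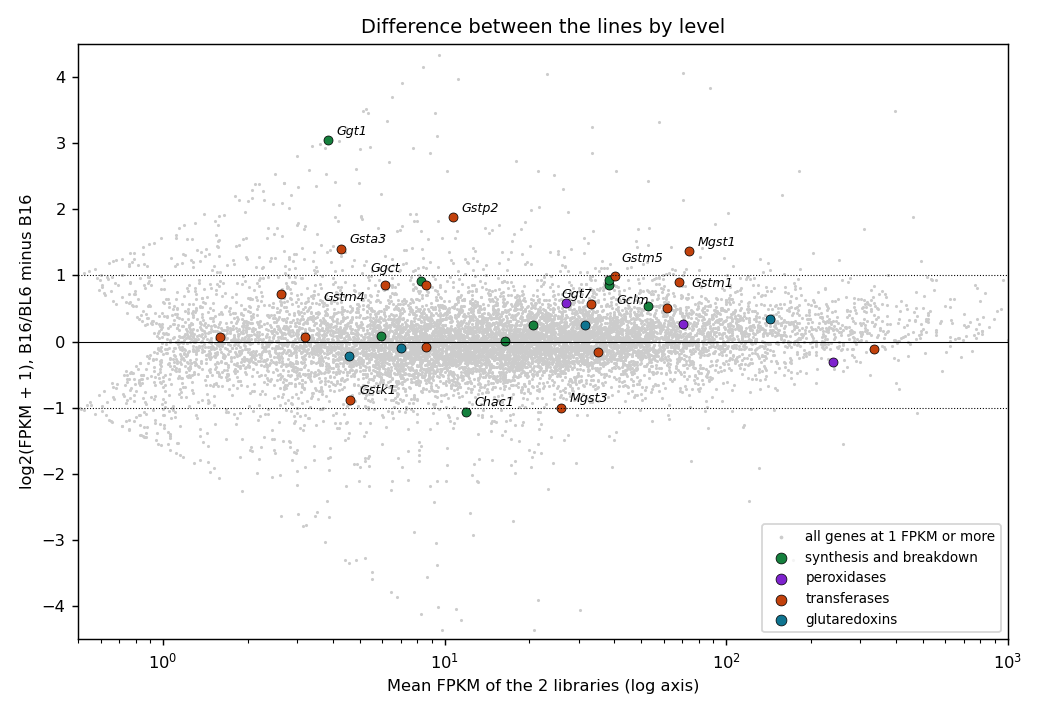
Difference in log2(FPKM + 1), B16/BL6 minus B16, against the mean FPKM of the libraries (log axis), for all genes at 1 FPKM or more (grey; 73 lie outside the axes) and the 33 glutathione genes coloured by role; dotted lines mark 2-fold. Ggt1, Gstp2, Gsta3 and Mgst1 lie above the upper line and Chac1 just under the lower line.

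The genes that make and recycle glutathione were close to equal or higher in B16/BL6. All lay within 2-fold, beside 3.31% higher and 3.16% lower of all genes. Gclm, the modifier subunit of glutamate-cysteine ligase (chr3:122245487-122267215 in mm10, as for the positions below), stood at 49.9 FPKM in B16/BL6 and 27.1 FPKM in B16, a difference of 0.86. Gclc, the catalytic subunit that sets the rate of synthesis (chr9:77754535-77794489), stood at 16.5 FPKM in B16/BL6 and 16.3 FPKM in B16. The subunits therefore differed unequally: the ratio of Gclm to Gclc was 3.03 in B16/BL6 and 1.66 in B16. The difference of Gclc was 0.01, but -0.15 on the TPM scale and -0.03 after upper-quartile scaling. Gss, glutathione synthetase, was at 22.5 FPKM in B16/BL6 and 18.8 FPKM in B16 (0.25). Gsr, glutathione reductase (chr8:33653238-33698162), was at 63.1 FPKM in B16/BL6 and 42.9 FPKM in B16 (0.54), the highest level of these genes in both libraries. Together these 4 genes summed to 152 FPKM in B16/BL6 and 105 FPKM in B16, a ratio of 1.45. Their sums on the TPM scale were 269.8 in B16/BL6 and 210.0 in B16.

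The breakdown genes held the largest difference of all members, that of Ggt1, and the only gene counted as 2-fold lower, Chac1. Ggt1, which encodes the cell-surface gamma-glutamyltransferase that starts the breakdown of glutathione outside the cell (chr10:75561076-75586193), was at 7.65 FPKM in B16/BL6 and 0.0499 FPKM in B16. By the approximate depths and its longest transcript of 2167 bases, these levels correspond to about 184 fragments in B16/BL6 and about 1 in B16 (1.09). Its transcript was thus nearly undetected in B16 and clearly present in B16/BL6. The difference was 3.04 with a pseudocount of 1, and 5.69 and 1.32 with pseudocounts of 0.1 and 5, so its size is set largely by that choice. Ggt7, a relative of Ggt1 (chr2:155490379-155514891), was at 50.6 FPKM in B16/BL6 and 26.0 FPKM in B16 (0.93). Ggct, gamma-glutamylcyclotransferase, which acts on gamma-glutamyl amino acids inside the cell (chr6:54985095-54992960), was at 11.1 FPKM in B16/BL6 and 5.42 FPKM in B16 (0.91).

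Chac1 and Chac2 encode cytosolic enzymes that cleave glutathione itself, Chac1 the form known to be induced under stress. Chac1 (chr2:119351242-119354326) was at 7.35 FPKM in B16/BL6 and 16.4 FPKM in B16, a difference of -1.06, which was -0.79 with a pseudocount of 5. Chac2 (chr11:30976707-30986365) was at 6.16 FPKM in B16/BL6 and 5.74 FPKM in B16 (0.09, but -0.06 on the TPM scale). Chac1 was thus the higher of the pair in both libraries, by less in B16/BL6. Of the 9 genes of synthesis and breakdown, 1 passed 2-fold on each side, or 11.1%, beside 3.31% higher and 3.16% lower of all genes. Above 0 were 8, with a median of 0.54 and sums of 235 FPKM in B16/BL6 and 159 FPKM in B16.

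Most peroxidases reduce hydrogen peroxide or lipid peroxides with glutathione. None of the 3 that reached 1 FPKM differed 2-fold, beside 3.31% higher and 3.16% lower of all genes. Gpx1, the abundant selenium enzyme of the cytosol (chr9:108339080-108340342), was at 214 FPKM in B16/BL6 and 266 FPKM in B16 (-0.31). Gpx4, the selenium enzyme that reduces lipid peroxides in membranes (chr10:80047166-80056439), went the other way, at 32.7 FPKM in B16/BL6 and 21.5 FPKM in B16 (0.58). The median of the genes of chromosome 10 was itself 0.41, and Gpx4 stood at 0.17 relative to it. Of the windows of 50 bases along the longest Gpx4 transcript, 61.7% also occur in transcripts of other genes, almost all in its pseudogene Gpx4-ps2, so its value depends on how such reads were assigned. Gpx8, an enzyme of the endoplasmic reticulum with cysteine in place of selenocysteine (chr13:113042757-113046430), was at 77.0 FPKM in B16/BL6 and 63.7 FPKM in B16 (0.27, or 0.59 relative to its chromosome). Gpx2, the intestinal form, was at 0.955 FPKM in B16/BL6 and 0.738 FPKM in B16, and Gpx3, the plasma form, at 0.188 FPKM in B16/BL6 and 0.138 FPKM in B16. Gpx7 was listed at 0 in both. The peroxidases summed to 325 FPKM in B16/BL6 and 352 FPKM in B16, and Gpx1 made up 65.9% of that sum in B16/BL6 and 75.6% in B16.

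The transferases were the largest group, and their levels spanned classes with different trends. Of the 22 genes, 17 reached 1 FPKM, 12 of these were above 0, and the median was 0.57. On the higher side 3 passed 2-fold, or 17.65%, beside 3.31% of all genes, and on the lower side 0, beside 3.16%. On the TPM scale the same 17 genes gave 3 higher and 2 lower with a median of 0.41. The shares of all genes on that scale were 3.28% and 5.18%. The group summed to 799 FPKM in B16/BL6 and 652 FPKM in B16. With the libraries at equal sums (TPM scale), these were 1417 in B16/BL6 and 1302 in B16.

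The pi class had the highest summed level of the transferase classes. Gstp1, the major transferase of many tumour cells (chr19:4035411-4037912), was at 323 FPKM in B16/BL6 and 350.0 FPKM in B16 (-0.12), and it made up 40.5% of the transferase sum in B16/BL6 and 53.7% in B16. Its neighbour and near-copy Gstp2 (chr19:4040288-4042221) was at 17.4 FPKM in B16/BL6 and 4.0 FPKM in B16, a difference of 1.88. The coding sequences of both are 633 bases long and differ at 12 bases, 6 of which lie in the first 120 bases. That stretch, from GENCODE M21 transcripts on mm10, is shown to make plain how few bases separate them, with the differing bases in capitals.
Gstp1: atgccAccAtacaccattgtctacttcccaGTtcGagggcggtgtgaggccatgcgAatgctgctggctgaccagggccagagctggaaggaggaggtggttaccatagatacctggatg
Gstp2: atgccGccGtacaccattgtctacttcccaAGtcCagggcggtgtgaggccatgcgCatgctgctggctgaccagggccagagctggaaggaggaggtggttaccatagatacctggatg
Of the windows of 50 bases, 72.6% of those in Gstp2 and 62.3% of those in Gstp1 occur in other transcripts. The sum of both genes was 340.5 FPKM in B16/BL6 and 354 FPKM in B16, a ratio of 0.962, and Gstp1 exceeded Gstp2 by 18.6 times in B16/BL6 and 87.6 times in B16. The sources used here do not say how reads that fit both genes were assigned, so the value of Gstp2 is uncertain.

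The microsomal genes, which encode membrane-bound enzymes with transferase and peroxidase activity, went in opposite directions. Mgst1, of the endoplasmic reticulum and outer mitochondrial membrane (chr6:138140527-138156755), was at 107 FPKM in B16/BL6 and 40.8 FPKM in B16, a ratio of 2.61 and a difference of 1.37. It shares no window of 50 bases with another gene and stayed between 1.18 and 1.38 under all 5 other pseudocounts and scalings. Mgst3 (chr1:167371966-167393841) was at 16.9 FPKM in B16/BL6 and 34.8 FPKM in B16, a difference of -0.998, which was -1.18 on the TPM scale, -1.05 after upper-quartile scaling and -0.94 relative to its chromosome. Mgst2 was listed at 0 in B16/BL6 and at 0.476 FPKM in B16.

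In the alpha class, whose enzymes conjugate lipid aldehydes and reduce organic peroxides, Gsta3 differed most. Gsta3 (chr1:21240565-21265575) was at 6.65 FPKM in B16/BL6 and 1.90 FPKM in B16, a ratio of 3.51 and a difference of 1.40, or 0.76 with a pseudocount of 5. It shares no window of 50 bases with another gene. Gsta1 (chr9:78230669-78242683) was at 11.3 FPKM in B16/BL6 and 5.83 FPKM in B16 (0.85), and Gsta2 at 3.30 FPKM in B16/BL6 and 3.08 FPKM in B16 (0.08, but -0.06 on the TPM scale). The coding sequences of Gsta1 and Gsta2 are 97.5% identical, and 89.7% and 64.2% of their 50-base windows occur elsewhere, also in the predicted genes Gm3776 and Gm10639. Summed over these 4 loci the level was 18.4 FPKM in B16/BL6 and 12.2 FPKM in B16, a ratio of 1.51. Gsta4 was listed at 0 in both libraries.

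The mu class, which acts on a wide range of electrophiles, lies in a single cluster on chromosome 3 (chr3:107895854-108045179 over the 6 genes), and its members differed unequally. Gstm1 was at 88.9 FPKM in B16/BL6 and 47.2 FPKM in B16 (0.90). Gstm5 was at 53.8 FPKM in B16/BL6 and 26.6 FPKM in B16 (0.99). Both stood near a ratio of 2, whereas Gstm2, which lies between them, was at 33.2 FPKM in B16/BL6 and 36.9 FPKM in B16 (-0.15). The lower members showed the same contrast. Gstm4 was at 8.20 FPKM in B16/BL6 and 4.06 FPKM in B16 (0.86), and Gstm7 at 3.52 FPKM in B16/BL6 and 1.73 FPKM in B16 (0.72), but Gstm6 at 1.65 FPKM in B16/BL6 and 1.54 FPKM in B16 (0.06, with the other sign on the TPM scale and relative to its chromosome). The class summed to 189 FPKM in B16/BL6 and 118 FPKM in B16, a ratio of 1.60. Its sums on the TPM scale were 335.9 in B16/BL6 and 235.9 in B16. The ratio of Gstm1 to Gstm2 was 2.68 in B16/BL6 and 1.28 in B16. Coding identity within the class reached 86.0%, for Gstm1 and Gstm2. The share of 50-base windows found in other genes was 23.1% for Gstm1, 14.4% for Gstm5, 11.5% for Gstm6, 9.36% for Gstm2 and 0% for Gstm4 and Gstm7.

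The remaining transferases stayed under 2-fold on the log2(FPKM + 1) scale, though Gstk1 did not as a plain ratio of FPKM. Gsto1, of the omega class, which also reduces dehydroascorbate (chr19:47854973-47864790), was at 72.3 FPKM in B16/BL6 and 50.6 FPKM in B16 (0.51). Gstz1, of the zeta class, an isomerase of tyrosine breakdown (chr12:87147161-87164723), was at 39.7 FPKM in B16/BL6 and 26.3 FPKM in B16 (0.57). Gstk1, of the kappa class, found in mitochondria and peroxisomes (chr6:42245935-42250441), was lower, at 2.96 FPKM in B16/BL6 and 6.27 FPKM in B16, a ratio of 0.471 and a difference of -0.88. It passed 2-fold on the TPM scale (-1.12), relative to its chromosome (-1.06) and with a pseudocount of 0.1 (-1.06). Gstt3, of the theta class, was at 8.33 FPKM in B16/BL6 and 8.87 FPKM in B16 (-0.08, or -0.49 relative to chromosome 10). Gsto2 was at 0.524 FPKM in B16/BL6 and 0.578 FPKM in B16, and Gstt2 at 0.212 FPKM in B16/BL6 and 0.312 FPKM in B16, while Gstt1 was listed at 0 in both.

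The glutaredoxins, which use glutathione to reduce disulfides or to carry iron-sulfur clusters, were close to equal. Glrx5, the mitochondrial cluster carrier (chr12:105032618-105040911), was at 161 FPKM in B16/BL6 and 126 FPKM in B16 (0.34) and made up 78.0% of the summed level in B16/BL6 and 75.5% in B16. Glrx3, its cytosolic counterpart, was at 34.4 FPKM in B16/BL6 and 28.8 FPKM in B16 (0.25). The disulfide-reducing Glrx, of the cytosol, was at 6.75 FPKM in B16/BL6 and 7.28 FPKM in B16 (-0.10, but 0.22 relative to its chromosome). Glrx2, of mitochondria, was at 4.15 FPKM in B16/BL6 and 4.99 FPKM in B16 (-0.22). The median of the 4 was 0.07, and -0.09 on the TPM scale.

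Position was set beside these differences, because whole chromosomes differed between the libraries. The chromosome medians ranged from -0.32 on chromosome 13 to 0.41 on chromosome 10, where Ggt1, Gpx4, Gstt1, Gstt2 and Gstt3 lie. Relative to that median the difference of Ggt1 was 2.63. Its 10 nearest expressed neighbours had a median of 0.38 and a range of -0.08 to 2.33, the top being AI646023 (Lrrc75b in RefSeq), the next expressed gene before it, at 5.70 FPKM in B16/BL6 and 0.330 FPKM in B16. Gstt3, the third expressed gene on the other side, was at -0.08. Gstp2 stood outside its neighbours (-0.29 to 0.56), and so did Gsta3 (-1.26 to 0.35). The neighbours of Mgst1 had a median of 0.01 and included Pde3a at 3.03. Chac1 stood below all of its neighbours (-0.96 to 0.32). Mgst3, Gstk1 and Gstt3 also stood below all of theirs, whose medians were 0.24 for Mgst3, 0.62 for Gstk1 and 0.56 for Gstt3.

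**Figure D3:**
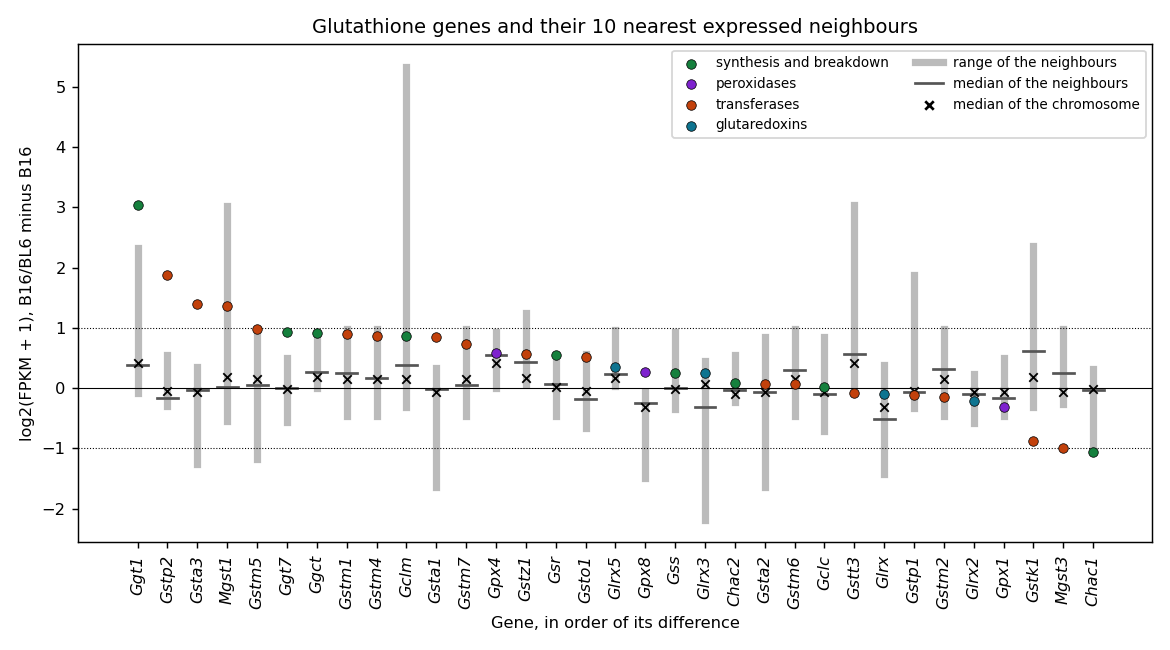
Difference in log2(FPKM + 1), B16/BL6 minus B16, of the 33 glutathione genes (points, coloured by role), with the range (grey bar) and median (dash) of their 10 nearest expressed neighbours and the median of their chromosome (cross); dotted lines mark 2-fold. Ggt1, Gstp2 and Gsta3, among others, stand above all of their neighbours, and Gstt3, Gstk1, Mgst3 and Chac1 below all of theirs.

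**Figure D4:**
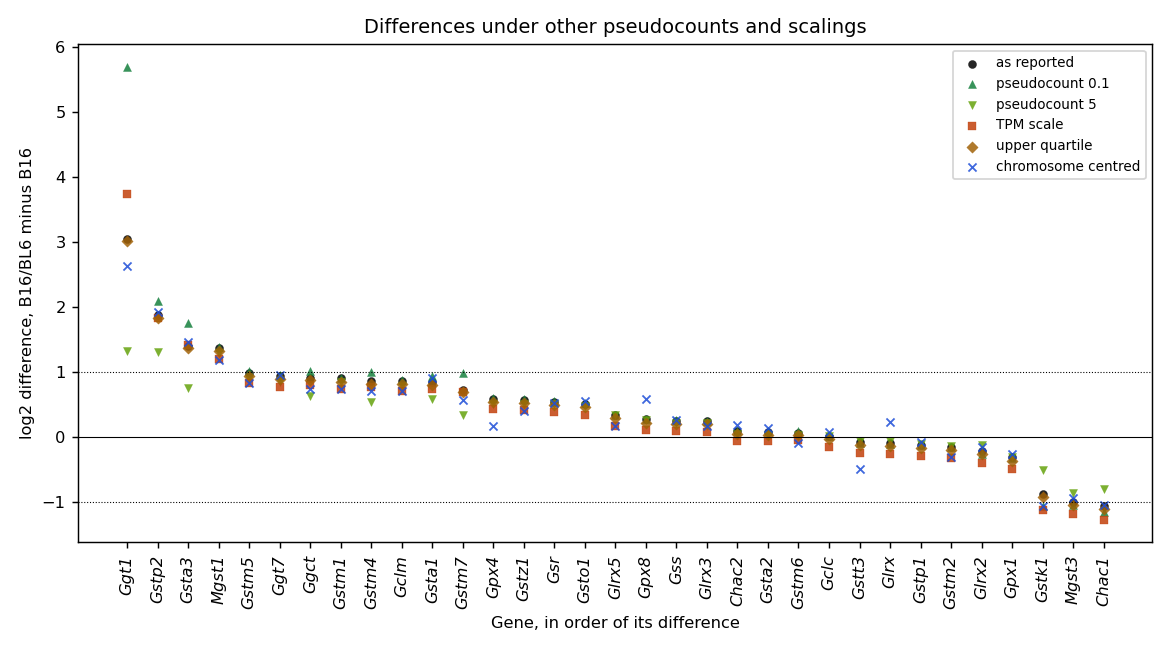
The log2 difference of the same genes as reported and under other pseudocounts and scalings (1 symbol each); dotted lines mark 2-fold. The pseudocount moves Ggt1 most, between 1.32 and 5.69, and Mgst1 and Gstp2 stay above 2-fold under each of these settings.

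Promoter sequences were read for the letters of known response elements. RefSeq windows (GRCm38.p6, 250 bases before to 50 after the start) matched 37 of the 41 genes, with 56 windows. Gclc, Gsr, Gsta4 and Gstt2 had no window, so their promoters were not read. The core of the antioxidant response element bound by Nrf2, TGACNNNGC on either strand, was found in 7 of the 37 genes (18.9%) and in 9 of the 56 windows (16.1%), beside 14.0% of all genes and 12.4% of all windows. The members with it were Gclm, Ggct, Ggt1, Gsta3, Gstm5, Gstm7 and Mgst1, whose differences ran from 0.72 to 3.04. Only these letters were searched for, so windows without them may hold other forms of the element. Measured members whose windows lack these letters ran from -1.06 (Chac1) to 1.88 (Gstp2). They include Ggt7 (0.93), Gstm1 (0.90) and Gsta1 (0.85), and also Gpx1 (-0.31), Gstk1 (-0.88) and Mgst3 (-0.998). The share of members with the letters lay near that of all genes, and a link between letters and differences was not tested. Genes with several windows, such as Ggt1, had more chances to match. TGATGCAA, an element bound by ATF4 with C/EBP proteins, was found in Chac1 alone among the members and in 1.03% of all genes. A second form, TGATGNAAT, was found in none of the members and in 1.08% of all genes. The forms can overlap, and a match is only a match of letters. For 4 of the higher genes and for Chac1, the 200 bases before the start are given to show where the letters lie (for Ggt1, at the last of its 3 starts with a match), 5′ to 3′ on the strand of the gene, with the matched letters in capitals.
Mgst1 (chr6:138140327-138140526, plus strand): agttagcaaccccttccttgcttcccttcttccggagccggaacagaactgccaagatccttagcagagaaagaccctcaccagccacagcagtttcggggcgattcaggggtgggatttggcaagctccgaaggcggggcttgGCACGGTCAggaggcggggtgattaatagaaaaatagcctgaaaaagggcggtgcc
Gsta3 (chr1:21240385-21240584, plus strand): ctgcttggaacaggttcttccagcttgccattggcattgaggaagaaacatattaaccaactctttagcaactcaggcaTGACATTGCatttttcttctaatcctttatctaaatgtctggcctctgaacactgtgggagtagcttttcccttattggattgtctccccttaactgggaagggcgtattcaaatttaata
Ggt1 (chr10:75571360-75571559, plus strand): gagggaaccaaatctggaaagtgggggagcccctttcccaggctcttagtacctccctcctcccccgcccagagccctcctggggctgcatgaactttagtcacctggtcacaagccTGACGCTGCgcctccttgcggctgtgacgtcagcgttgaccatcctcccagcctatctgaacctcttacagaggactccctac
Gclm (chr3:122245357-122245556, plus strand): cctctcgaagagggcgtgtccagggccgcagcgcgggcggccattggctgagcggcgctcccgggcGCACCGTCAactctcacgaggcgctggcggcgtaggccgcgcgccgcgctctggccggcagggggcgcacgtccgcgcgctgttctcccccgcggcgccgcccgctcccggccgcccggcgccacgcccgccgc
Chac1 (chr2:119351042-119351241, plus strand): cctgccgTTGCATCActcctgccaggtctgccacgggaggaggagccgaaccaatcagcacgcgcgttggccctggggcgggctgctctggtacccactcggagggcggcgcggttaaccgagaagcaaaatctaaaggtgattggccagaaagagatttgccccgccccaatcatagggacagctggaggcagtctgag
The Mgst1, Gclm and Chac1 matches read on the opposite strand, so the capitals there show the reverse complement of the element. They start 56 bases before the start in Mgst1, 121 in Gsta3, 83 in Ggt1, 134 in Gclm and 193 in Chac1.

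Transcripts of the genes for cysteine and NADPH supply had medians near 0, while single genes differed more. Of 10 measured genes of cystine uptake and cysteine supply, 0 were at least 2-fold higher and 1 (10.0%) lower, with a median of -0.08. Over all genes the shares were 3.31% and 3.16%. Slc7a11, the cystine importer that limits glutathione synthesis in many tumour cells, was at 3.66 FPKM in B16/BL6 and 2.39 FPKM in B16 (0.46). The gene past 2-fold was Slc6a9, a glycine transporter, at 2.57 FPKM in B16/BL6 and 7.42 FPKM in B16, and the amino acid transporters Slc38a2 (59.5 FPKM in B16/BL6 and 99.0 FPKM in B16) and Slc1a4 (9.18 FPKM in B16/BL6 and 14.1 FPKM in B16) followed. All 14 genes of NADPH supply lay within 2-fold, with a median of -0.12. Among them Pgls (176 FPKM in B16/BL6 and 103 FPKM in B16) and Pgd (287 FPKM in B16/BL6 and 188 FPKM in B16), of the pentose phosphate pathway, and Idh1 (35.8 FPKM in B16/BL6 and 21.2 FPKM in B16) were higher, and Aldh1l1 (2.68 FPKM in B16/BL6 and 4.57 FPKM in B16) was lower.

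None of the measured genes next to the members passed 2-fold, beside 3.31% higher and 3.16% lower of all genes. With so few genes, none past 2-fold lies near those shares. In the rest of the gamma-glutamyl cycle and its related enzymes (7 measured genes, median 0.21), the surface peptidase gene Anpep was at 1.12 FPKM in B16/BL6 and 0.704 FPKM in B16. Ggt5 and Ggt6, relatives of Ggt1, were listed at 0 in both. In the other genes of the glutathione families (7 measured, median -0.25), Gstcd was at 17.7 FPKM in B16/BL6 and 8.94 FPKM in B16, and Clic4 at 42.3 FPKM in B16/BL6 and 67.9 FPKM in B16. In glutathione-dependent detoxification (8 measured, median -0.12), the formaldehyde-clearing pair Adh5 (117 FPKM in B16/BL6 and 74.6 FPKM in B16) and Esd (80.5 FPKM in B16/BL6 and 56.4 FPKM in B16) was higher, and the other 6 genes were below 0.

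The exporters of conjugates showed large differences of opposite sign in single genes. Abcc2, a pump for glutathione conjugates, was at 17.7 FPKM in B16/BL6 and 1.15 FPKM in B16, a difference of 3.12. Abcg2, a multidrug pump, was at 0.827 FPKM in B16/BL6 and 18 FPKM in B16, a difference of -3.38. Abcc4 was at 19.6 FPKM in B16/BL6 and 12.6 FPKM in B16. Of 7 measured genes of this list 1 was higher and 1 lower, or 14.3% each, beside 3.31% and 3.16% of all genes. The median was 0.22.

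The list of Nrf2 and the thioredoxin system, the other major thiol system, had 6 of 25 genes at least 2-fold higher and 1 lower. These are 24.0% and 4.0%, beside 3.31% and 3.16% of all genes. The median was 0.38, with 20 genes above 0. On the TPM scale 4 of the 25 were higher, beside 3.28% of all genes, and 17 were above 0. This list and the other related lists were chosen with earlier results of these data known. Nqo1, a quinone reductase, was at 44.5 FPKM in B16/BL6 and 1.75 FPKM in B16, a difference of 4.05. Osgin1 was at 51.7 FPKM in B16/BL6 and 15.5 FPKM in B16, and the biliverdin reductase Blvrb at 186 FPKM in B16/BL6 and 77.8 FPKM in B16. Txnrd1, Hmox1 and Prdx6 also passed 2-fold, Hmox1 and Prdx6 not on the TPM scale. Txnrd1 did not pass it relative to the median of chromosome 10 (0.83). Maff, a small partner protein of Nrf2, was at 1.86 FPKM in B16/BL6 and 7.0 FPKM in B16. The transcript of Nrf2 itself, Nfe2l2, was at 53.4 FPKM in B16/BL6 and 72.3 FPKM in B16 (-0.43), and that of its inhibitor Keap1 at 23.0 FPKM in B16/BL6 and 23.7 FPKM in B16. The median of 13 genes of the ATF4 response, to which Chac1 belongs, was -0.34. Beside 3.31% and 3.16% of all genes, 0 of them were higher and 3 lower (23.1%). They were Atf3 (1.25 FPKM in B16/BL6 and 8.71 FPKM in B16), Nupr1 (1.57 FPKM in B16/BL6 and 8.24 FPKM in B16) and Trib3 (6.72 FPKM in B16/BL6 and 19.5 FPKM in B16), and Asns, asparagine synthetase, followed at 90.2 FPKM in B16/BL6 and 154 FPKM in B16. Atf4 itself was at 195 FPKM in B16/BL6 and 224 FPKM in B16 (-0.20), and the serine synthesis genes Phgdh (0.75) and Psat1 (0.43) were above 0.

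**Figure D5:**
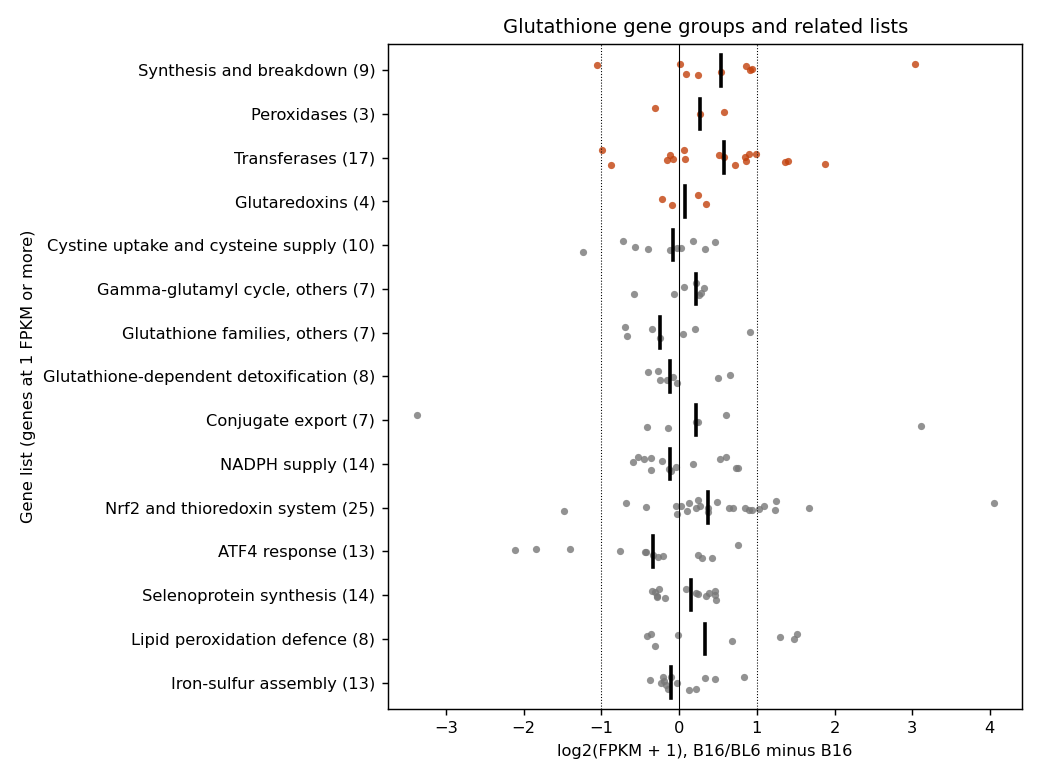
Difference in log2(FPKM + 1), B16/BL6 minus B16, of each gene at 1 FPKM or more in the 4 groups of glutathione genes (orange) and in 11 related lists (grey), with list medians as bars, the number of genes in brackets and dotted lines at 2-fold. The medians of transferases (0.57) and of synthesis and breakdown (0.54) lie right of 0, and that of the ATF4 response (-0.34) left of it.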

How the data were processed

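Total RNA of cultured B16/BL6 and B16 cells was made into stranded mRNA libraries, 1 per line, per the labels' protocols. The authors deposited FPKM per gene symbol, per the file headers. The submitters' processing notes list the mm10 build, Cufflinks 2.2.1, SAMtools 0.1.19, TopHat2 2.0.13 and Bowtie2 2.2.3, with no role or order. The sources used here do not give the annotation, the scaling or the treatment of shared reads. Since FPKM values carry no counts and each line has 1 library, no test was applied.

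Differences of log2(FPKM + 1), B16/BL6 minus B16, were taken for genes reaching 1 FPKM in either library, with Python 3.11.15, NumPy 2.4.6 and pandas 2.3.3, and checked on simulated data. Depth (about 11100000 fragments in B16/BL6 and 10000000 in B16) is the median of what a single fragment would imply in genes below 0.2 FPKM whose one transcript exceeds 1500 bases, keeping only estimates between 8000000 and 14000000, so it is approximate. Positions and promoters came from RefSeq on GRCm38.p6, the assembly of mm10, and transcripts from GENCODE M21. Coding-sequence identity was used in place of the protein identity first planned. Shared sequence is the share of 50-base windows of the longest coding transcript found on either strand in a transcript of another gene. All members are accounted for, and of each related list up to 4 genes with the largest differences are named. Some genes that this rule would name are not reported here. Nfe2l2, Keap1, Atf4, Phgdh, Psat1, Slc7a11, Anpep, Ggt5, Ggt6, Txnrd1, Hmox1, Prdx6, the markers and the genomic neighbours were named outside that rule, after their values were seen. The members and lists were chosen with earlier results of these data known. Alternatives were pseudocounts of 0.1 and 5, no minimum, a minimum of 5 FPKM, the TPM scale, upper-quartile scaling and centring by chromosome.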

Additional observations from a re-analysis of the deposited data

How the results depend on the processing

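No paired analysis was possible because each line has 1 library, and for the same reason no library could be left out. The number of members past 2-fold on the higher side was 4 as reported (3.31% of all genes), 6 with a pseudocount of 0.1 (Ggct and Gstm5 added; 4.59% of all genes), 3 with a pseudocount of 5 (without Gsta3; 1.41%) and 4 under the other alternatives (2.54% to 3.28%). The number on the lower side, 1 as reported (3.16% of all genes), was 3 with a pseudocount of 0.1 (4.77%), 0 with a pseudocount of 5 (1.1%), 3 on the TPM scale (5.18%), 2 after upper-quartile scaling (3.38%) and 2 with centring by chromosome (3.09%), so the shares of all genes moved with these settings too. The median of the members moved to 0.51 with a minimum of 5 FPKM (29 genes) and to 0.12 on the TPM scale, where the minimum let in 35 genes. That of the transferases was 0.29 with no minimum (20 genes), 0.71 with a minimum of 5 FPKM and 0.38 on the TPM scale. That of the peroxidases was 0.17 with no minimum and 0.11 on the TPM scale, and that of synthesis and breakdown 0.38 on the TPM scale. The glutaredoxin median was 0.25 with a minimum of 5 FPKM (3 genes), -0.090 on the TPM scale and 0.18 with centring by chromosome, so it has no settled sign. Without the 5 members that share most of their sequence with other genes (Gsta1, Gsta2, Gstp1, Gstp2 and Gpx4), 3 of 28 were on the higher side (10.7%) and 1 on the lower, with a median of 0.31. Of 227 single-member values under the alternatives, 7 had the other sign. The SD of the difference over all genes was 0.716 under a mean of 5 FPKM, where 7 members lie, 0.611 from 5 to 20 FPKM, 0.552 from 20 to 100 FPKM and 1.064 at 100 FPKM or more, where 3 members lie.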

Other observations

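Lists that border on glutathione use gave the following values. Defence against lipid peroxidation is the setting in which Gpx4 acts, and the list under that name also holds genes of iron handling. Of its 8 measured genes, 3 passed 2-fold on the higher side in B16/BL6. That is 37.5%, beside 3.31% of all genes. On the lower side were 0, beside 3.16% of all genes. The median was 0.33, with 4 genes above 0 and 4 below. The ferritin genes Ftl1 (7820 FPKM in B16/BL6 and 2719 FPKM in B16) and Fth1 (6235 FPKM in B16/BL6 and 2244 FPKM in B16), which store iron, and the iron exporter gene Slc40a1 (6.49 FPKM in B16/BL6 and 2.06 FPKM in B16) were the 3 on the higher side. All 3 handle iron, and the list also holds genes that favour lipid peroxidation, so its share does not measure defence. Ferritin transcripts have many processed pseudogenes in the mouse, so their values depend on how shared reads were assigned.

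Of 14 genes of selenoprotein synthesis and of other selenoproteins, none passed 2-fold, beside 3.31% higher and 3.16% lower of all genes. The median was 0.15, or -0.003 on the TPM scale. Selenot, listed as 2810407C02Rik, was at 115 FPKM in B16/BL6 and 82.5 FPKM in B16, and Eefsec, the elongation factor for selenocysteine, at 80.6 FPKM in B16/BL6 and 61.5 FPKM in B16. Of 13 genes of iron-sulfur assembly, in which Glrx3 and Glrx5 take part, none passed 2-fold, and the median was -0.11. Bola3 was at 226 FPKM in B16/BL6 and 126 FPKM in B16, and Bola2, a partner of Glrx3, at 523 FPKM in B16/BL6 and 415 FPKM in B16.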
